A study of Mus musculus with 20 samples.

Results

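The tight junction genes described here are 10 members of the apical junction of the gut epithelium, namely the claudin genes Cldn1, Cldn2, Cldn3, Cldn4, Cldn7, Cldn8, Cldn15 and Cldn23, the occludin gene Ocln, and Tjp1, which encodes ZO-1. They were chosen by name, and the level of each is the sum over its annotated transcripts of FPKM (fragments scaled by transcript length and library size), among 32991 genes measured in the colon of 20 male C57BL/6 mice. Each of 4 groups held 5 mice, with 1 rRNA-depleted library per mouse, and all mice were dosed by gavage for 91 days. Control mice were gavaged with double distilled water and PZH mice with 250 mg/kg per day of Pien Tze Huang (PZH), a formula of traditional Chinese medicine. AOM/DSS mice, which the labels call Model, were gavaged with water and carried colitis-associated cancer, induced by 1 intraperitoneal dose of 12.5 mg/kg azoxymethane (AOM, a colon carcinogen) and, beginning 7 days later, by 4 cycles of 2% dextran sulfate sodium (DSS, which injures the colonic epithelium) in drinking water, 5 days of DSS and 2 weeks of plain water in each. PZH + AOM/DSS mice, labelled Model + PZH, had the same induction and PZH. The age of the mice and the part of the colon taken are not stated in the sources used here, and the libraries hold whole tissue, so that fewer cells of a type and less RNA per cell cannot be told apart.

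Tight junctions close the space between neighbouring epithelial cells. Claudins are membrane proteins whose strands set which ions, and how much water, cross that space: Cldn2 and Cldn15 form channels for cations, whereas Cldn1, Cldn3, Cldn4 and Cldn8 are mostly counted as sealing claudins. Occludin is a MARVEL-domain protein of the same strands, and ZO-1 is the cytoplasmic scaffold that ties them to actin. In the colon this barrier keeps luminal bacteria from the mucosa, and changed claudin levels are a long-known feature of colitis and of colorectal tumours.

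The low values of the files stepped in units that correspond to 15.3 to 19.4 M fragments per library. At that depth Cldn1 rested on an estimated 18 to 180 fragments per mouse, Cldn2 on 0 to 3399, and each of the other 8 members on at least 299. The intestinal epithelial markers Krt19 and Vil1, the villin of the brush border, were high in every mouse. Krt19 was at 950.1 to 2138 FPKM and Vil1 at 156.9 to 273.9 FPKM. Not all such markers were, as Krt8 ran from 0.0706 FPKM in a PZH mouse to 3071 FPKM in a Control mouse. Control mice 17 and 50 stood apart, as their squamous epithelium genes (a list of 11 with Krt5, Krt13 and Krt14) summed to 526.5 and 382.4 FPKM against 0.966 to 2.18 FPKM in the other Control mice. PZH + AOM/DSS mouse 35 also stood apart from its group, with 198.9 FPKM of 6 crypt base genes against 51.4 to 69.7 FPKM in the other 4. Some transcripts were listed at 0 in part of the mice although the gene is known to be active in every colon, as Epcam was in 13 of 20 mice, so an exact 0 below is given only as listed.

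In the Control colon Cldn3 was the highest of the 10 members at 341.5 ± 19.3 FPKM (SD, n = 5), followed by Cldn7 at 143.5 ± 16.5 FPKM and Cldn8 at 88.2 ± 16.3 FPKM. The ranges over mice of these 3 claudins did not overlap with each other or with the next gene. Cldn23 at 29.2 ± 5.46, Cldn15 at 28.02 ± 14.3 and Cldn4 at 25.3 ± 9.06 FPKM formed an overlapping middle tier, and Tjp1 at 18.4 ± 2.32 FPKM overlapped with Cldn4 above it and with Ocln at 15.9 ± 3.47 FPKM below it. Cldn2 was listed between 0 and 11.4 FPKM, and Cldn1 lay between 0.623 and 3.39 FPKM. In the PZH mice Cldn3 and Cldn7 again headed the order without overlap, and Cldn8 overlapped with Cldn15. In the AOM/DSS mice Cldn4 was second at 178.2 ± 59.8 FPKM, a range that overlapped with Cldn7 at 162.5 ± 21.9 FPKM, and Cldn8 came after Cldn7 at 35.6 ± 19.9 FPKM, a range that overlapped with Ocln.

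**Figure D1:**
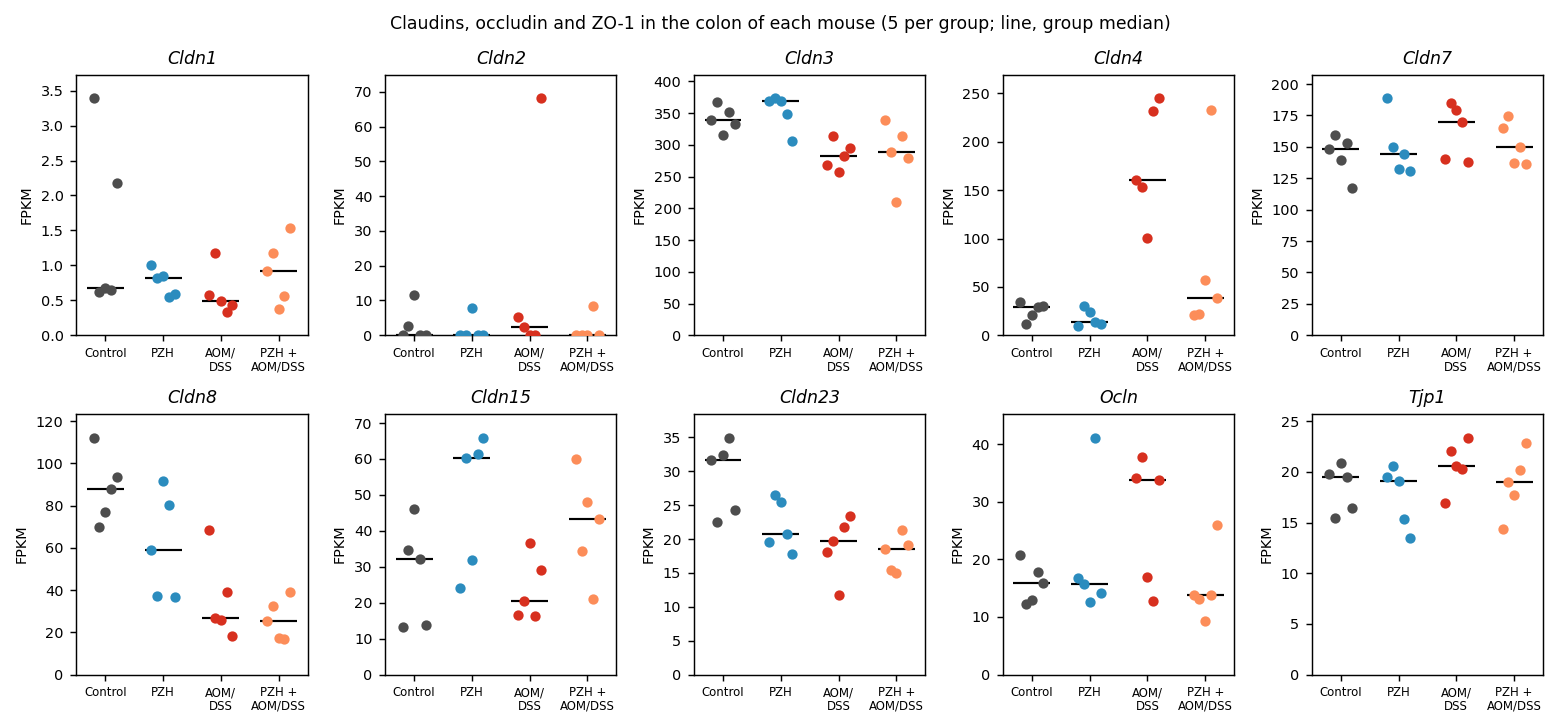
FPKM (linear axis) of the 10 tight junction genes in each mouse, with 1 point per mouse and a line at the median of each group of 5. All 5 AOM/DSS mice lie between 100.6 and 245.1 FPKM of Cldn4 and all Control mice at or below 34.7 FPKM, whereas for Cldn8 the order is the opposite.

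Across all 22 claudins found in the files, Control mice held 645 to 722 FPKM of claudin transcripts in sum (mean 694, SD 33, n = 5), and the AOM/DSS group, at 646 to 849 FPKM (mean 750, SD 78, n = 5), overlapped with it. The make-up of that sum differed. Cldn4 made up 1.67 to 4.84% of claudin FPKM in Control mice and 15.6 to 29.3% in AOM/DSS mice, without overlap. Cldn3 made up 46.8 to 51.8% in Control and 34.7 to 41.4% in AOM/DSS mice, and Cldn8 9.87 to 15.7% against 2.12 to 9.73%, again without overlap. In the PZH + AOM/DSS mice the share of Cldn4 ranged from 3.2% to 29.4%, the top value being that of mouse 35, and the share of Cldn8 was 2.1 to 6.62%. These shares are descriptions of the same FPKM values and were not tested separately.

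**Figure D2:**
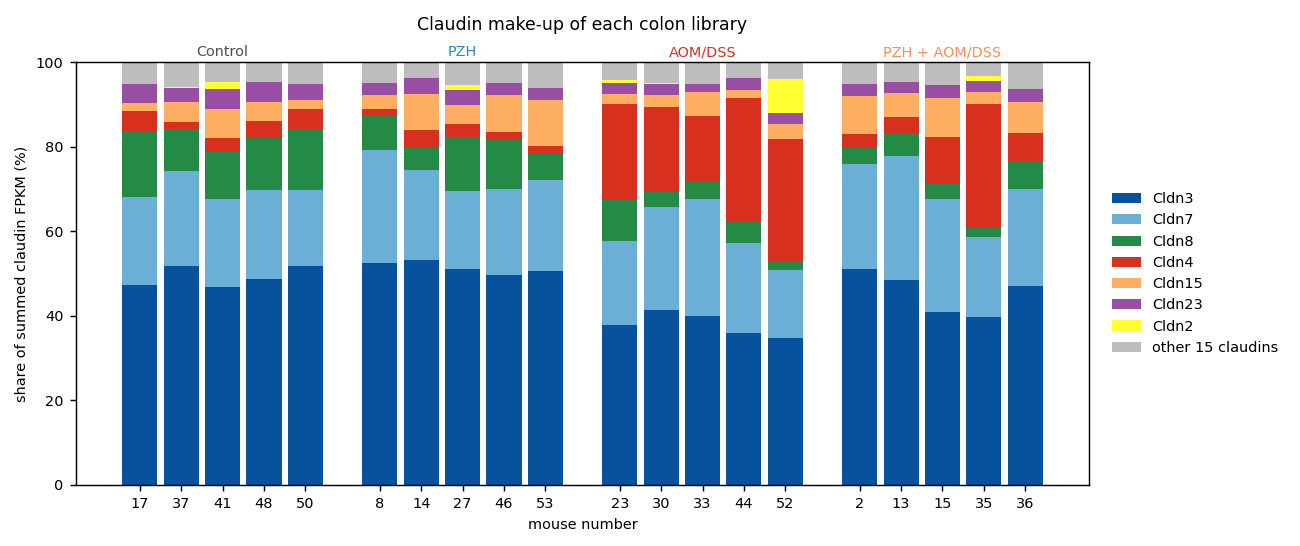
Share (%) of the summed FPKM of all 22 claudins taken by 7 named claudins and by the other 15, with 1 bar per mouse. Cldn4 is at least 15.6% in the AOM/DSS bars and at most 4.84% in the Control bars, and mouse 35 of PZH + AOM/DSS has a share of 29.4%.

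The comparison of AOM/DSS with Control mice asks how the colitis-associated cancer colon differs in these genes. Cldn4 was 7.04-fold higher in mean FPKM, and Cldn8, Cldn23 and Cldn3 were lower, at 0.403, 0.651 and 0.830 of the Control mean. With limma across 15812 genes, 1 of the 10 members was higher and 3 were lower at an adjusted P under 0.05, beside 16.4% of all genes tested called higher and 7.23% called lower. The groups did not overlap for Cldn3, Cldn4 and Cldn8, 3 of 10 members, beside 18.4% of all genes. The median log2 fold change was 0.015 over the members and 0.094 over all genes tested, all fold changes being taken on log2(FPKM + 1), which understates those of low genes.

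**Figure D3:**
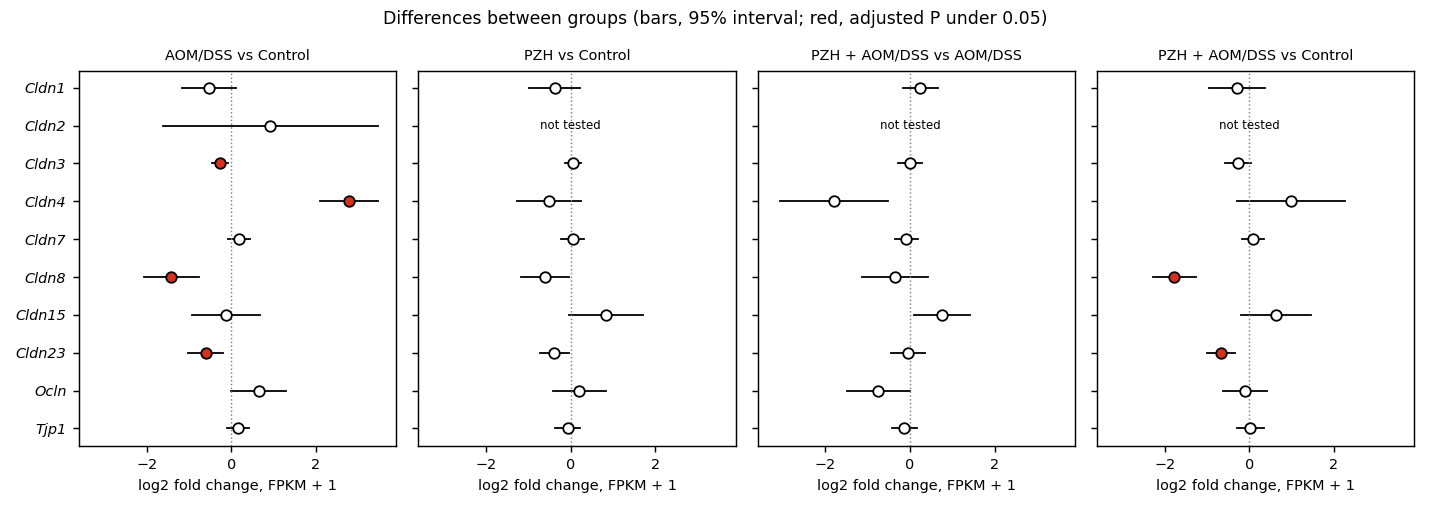
Log2 fold changes on FPKM + 1 with 95% intervals from limma in 4 comparisons of 5 with 5 mice, with red points at an adjusted P under 0.05 and open points above it. In AOM/DSS against Control, Cldn4 is red on the right and Cldn3, Cldn8 and Cldn23 are red on the left, and no point is red for PZH against Control or for PZH + AOM/DSS against AOM/DSS.

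Cldn4, a sealing claudin that also takes part in anion passage with Cldn8 in some epithelia, stood at 34.7, 11.8, 20.7, 29.3 and 29.98 FPKM in Control mice 17, 37, 41, 48 and 50. AOM/DSS mice 23, 30, 33, 44 and 52 had 160.2, 153.3, 100.6, 231.7 and 245.1 FPKM. Every AOM/DSS mouse was thus above every Control mouse, with a log2 fold change of 2.78 (SE 0.31, adjusted P = 1.57e-04). The call held under each of 8 other settings and without each mouse, with log2 values between 2.55 and 3.07. Crypt base genes such as Sox9, Axin2, Rnf43 and Smoc2 moved with it, as 6 of 6 were called higher and their sum was 42.1 to 60.8 FPKM in Control and 129.2 to 184.0 FPKM in AOM/DSS mice. Surface colonocyte genes such as Guca2a, Car4 and Car1 went the other way, with 7 of 8 called lower, the exception being Ceacam1 at 0.17 (adjusted P = 0.644), and a sum of 3911 to 4903 FPKM in Control and 946.8 to 1791 FPKM in AOM/DSS mice. Immune cell genes were called higher in 5 of 8 (among the listed genes S100a9, S100a8, Cd79a and Csf1r had the highest means), and their sum was 30.5 to 67.8 FPKM in Control and 180.6 to 557.5 FPKM in AOM/DSS mice. Smooth muscle genes (Tagln, Acta2, Actg2 and Des lead the list) were called lower in 6 of 6, with sums of 2244 to 5172 FPKM and 996.1 to 1734 FPKM. Of 10 simple epithelium genes tested, 4 were called lower and none higher. They were Krt19 at -0.75 (adjusted P = 0.00191), Lgals4 at -0.63 (0.0302), Cdx1 at -0.62 (0.0131) and Phgr1 at -1.70 (0.00496). The list summed to 4166 to 7997 FPKM in Control and 3139 to 6481 FPKM in AOM/DSS mice. These sums include Krt8, at 0.105 to 3071 FPKM in Control and 0.74 to 1873 FPKM in AOM/DSS mice. Epcam, also included, exceeded 0 FPKM only in AOM/DSS mice 23 and 33 of this comparison, at 843.8 and 672.5 FPKM. The overlap of the sums therefore does not show equal epithelial content. The part of these cell type differences in the claudin values, those of Cldn3, Cldn8 and Cldn23 included, was not tested.

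Cldn3, a sealing claudin that lies near Cldn4 on chromosome 5, had 339.5, 367.3, 315.9, 351.6 and 333.2 FPKM in the Control mice and 267.4, 314.3, 257.9, 282.7 and 294.8 FPKM in the AOM/DSS mice. The groups touched without overlap, at 315.9 and 314.3 FPKM, and the log2 fold change was -0.27 (SE 0.088, adjusted P = 0.0474). The call was lost without any of 8 of the 10 mice (Control 17, 37, 48 and 50, AOM/DSS 23, 33, 44 and 52), at adjusted P up to 0.113 with log2 values of -0.31 to -0.24 over all 10 omissions. Without both Control mice that held squamous genes it was -0.28 with an adjusted P of 0.108, and with all 20 mice in 1 model and with no filter the adjusted P was 0.0737 and 0.0764. Both genes are single-exon genes with transcription starts 39280 bases apart, and they point away from each other, so the 250 bases before each start are printed here because these nearby genes moved in opposite directions. The sequences are RefSeq promoters on GRCm38.p6, written 5′ to 3′ on the strand of the gene in lower case, with motif matches in capitals, Cldn3 at chr5:134985964-134986213 on the plus strand and Cldn4 at chr5:134946935-134947184 on the minus strand.
Cldn3: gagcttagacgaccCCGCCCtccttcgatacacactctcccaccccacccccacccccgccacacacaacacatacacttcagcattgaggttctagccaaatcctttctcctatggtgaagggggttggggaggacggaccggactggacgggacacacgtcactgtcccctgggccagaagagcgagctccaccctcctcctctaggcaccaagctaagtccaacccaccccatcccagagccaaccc
Cldn4: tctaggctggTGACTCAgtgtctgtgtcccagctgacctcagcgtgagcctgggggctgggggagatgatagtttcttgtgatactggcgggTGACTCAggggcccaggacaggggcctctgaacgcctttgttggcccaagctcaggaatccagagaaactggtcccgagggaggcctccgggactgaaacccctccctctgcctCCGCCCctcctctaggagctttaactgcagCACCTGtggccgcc
The capitals mark 3 motif types found on either strand, the GC box GGGCGG, which binds Sp factors, the E-box CAGGTG, which binds repressors such as Snail, and the AP-1 motif TGANTCA, none of which overlapped with another. The Cldn4 window held 2 AP-1 motifs, 1 E-box and 1 GC box. The Cldn3 window held 1 GC box. The TATA box TATAAA was also searched and matched neither window. The same held for the letters CTTTGA of the TCF/LEF core and AGATAA of the GATA motif. Other spellings of these motifs were not searched, so their absence from the windows is not shown. Of 32851 RefSeq promoter windows of this length, 6.75% held the AP-1 motif, 17.2% the E-box, 32.7% the GC box, 12.4% the TATA box, 13.8% the TCF/LEF core and 9.99% the GATA motif. Of the other members with a RefSeq promoter, Cldn15 held 1 AP-1 motif, and 1 window each of Cldn7 and Ocln held 2 E-boxes. GC boxes were found in Cldn1, Cldn7, Cldn15, Ocln and Tjp1, and a TATA box in Cldn2. Cldn8 and Cldn23 had no promoter entry. A match describes letters and not binding.

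Cldn8, a sealing claudin of the distal colon and the distal nephron, had 112.2, 70.0, 77.1, 88.1 and 93.6 FPKM in the Control mice. In the AOM/DSS mice it had 68.7, 26.7, 25.7, 38.9 and 18.03 FPKM. The highest AOM/DSS mouse, 23, was just below the lowest Control mouse, 37, and the other 4 were far lower. The log2 fold change was -1.42 (SE 0.30, adjusted P = 0.00686). The call held without each mouse, at adjusted P up to 0.019, and under each other setting, at up to 0.0457, with log2 values of -1.69 to -1.22. Hoxb13, a homeobox gene of the distal colon, was called lower in the same comparison while Hoxd13 and Hoxd12 were not, and the summed level of the distal genes was 171.5 to 248.0 FPKM in Control and 109.7 to 168.2 FPKM in AOM/DSS mice. The part of the position sampled along the colon in the Cldn8 difference was not tested.

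Cldn23, a claudin of the surface epithelium, had 31.7, 22.5, 32.3, 34.97 and 24.2 FPKM in Control and 18.1, 19.8, 11.7, 21.8 and 23.5 FPKM in AOM/DSS mice. The groups overlapped at Control mouse 37 and AOM/DSS mouse 52. The log2 fold change was -0.61 (SE 0.19, adjusted P = 0.0404), and the call was lost without any of 7 mice (Control 17, 41 and 48, AOM/DSS 23, 30, 33 and 44), at adjusted P up to 0.0916 and log2 values of -0.69 to -0.46. It was also lost with no filter, with the highest transcript alone and without Control mice 17 and 50, at adjusted P of 0.0698, 0.0573 and 0.0934. Surface colonocyte genes, of which 7 of 8 were called lower, moved with Cldn8 and Cldn23 in this comparison.

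Cldn7, a basolateral claudin that binds the adhesion protein EpCAM, was 143.5 ± 16.5 FPKM in Control and 162.5 ± 21.9 FPKM in AOM/DSS mice, with a log2 fold change of 0.18 (SE 0.12, 95% interval -0.091 to 0.44, adjusted P = 0.333). Its transcripts were less even than its sum. Cldn7-204, a 913-base transcript with 5 exons at chr11:69964779-69967810, was 72.0 to 108.0 FPKM in 5 mice (PZH 8, AOM/DSS 30, 33 and 44, PZH + AOM/DSS 13) and 12.6 to 44.04 FPKM in the other 15. Cldn7-201, of 1335 bases and 4 exons at chr11:69965396-69967885, was 59.8 to 70.0 FPKM in those 5 mice and 83.1 to 116.0 FPKM in the rest. Taken alone, Cldn7-201 had a log2 fold change of -0.56 in AOM/DSS against Control (adjusted P = 0.0268), opposite in sign to the sum. How fragments were divided between these overlapping transcripts was not tested.

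Cldn1, a sealing claudin that is abundant in skin and scarce in the colon, was at or below 0.669 FPKM in 3 Control mice and at 3.39 and 2.17 FPKM in Control mice 17 and 50. Those are the 2 Control mice with high squamous epithelium genes. Krt13 stood at 125.0 and 126.2 FPKM there, against at most 0.527 FPKM in the other Control mice. The squamous list also summed to 13.8 to 38.5 FPKM in the AOM/DSS mice and to 68.2 FPKM in PZH + AOM/DSS mouse 35. That mouse had 0.564 FPKM of Cldn1. AOM/DSS mice had 0.580, 1.18, 0.497, 0.329 and 0.433 FPKM of Cldn1. The log2 fold change was -0.53 (SE 0.29, 95% interval -1.17 to 0.10, adjusted P = 0.214). PZH mice spanned 0.542 to 1.00 FPKM and PZH + AOM/DSS mice 0.376 to 1.54 FPKM, and no comparison called it.

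**Figure D4:**
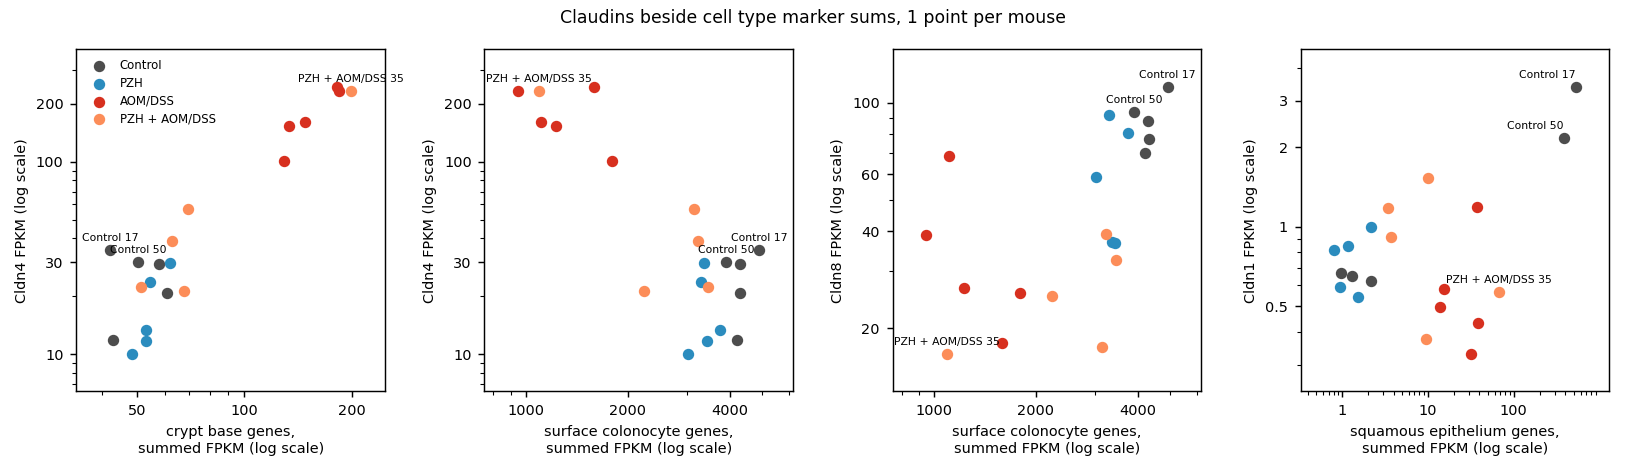
FPKM of Cldn4, Cldn8 and Cldn1 against the summed FPKM of marker lists (both axes logarithmic), with 1 point per mouse coloured by group and 3 mice named. PZH + AOM/DSS mouse 35 lies with the AOM/DSS mice at 232.9 FPKM of Cldn4 and 198.9 FPKM of crypt base genes, and Control mice 17 and 50 lie at the top right of the Cldn1 panel.

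The channel-forming claudins differed from each other in what the files can show. Cldn2, the cation and water channel of leaky epithelia, was listed at 0 in 10 of 20 mice. Its nonzero values were 2.79, 11.4, 0.107 and 0.152 FPKM in Control, 0.105 and 7.89 FPKM in PZH, 5.17, 2.38 and 68.2 FPKM in AOM/DSS and 8.54 FPKM in PZH + AOM/DSS mice. Only AOM/DSS mouse 52 exceeded 11.4 FPKM. The full-length transcript Cldn2-201, of 3044 bases at chrX:139800828-139811386, was listed at 0 in 15 mice and the shorter Cldn2-202 in 16, and the log2 fold change of AOM/DSS against Control was 0.92 (SE 1.15, 95% interval -1.62 to 3.45, adjusted P = 0.615). The gene passed the filter on low values (0.5 FPKM in at least 5 mice of a comparison) in that comparison and in the 20-mouse model only.

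Cldn15, the sodium channel that supports absorption in the intestine, had 13.2, 34.8, 46.2, 32.2 and 13.8 FPKM in Control and 16.7, 20.4, 36.6, 16.4 and 29.2 FPKM in AOM/DSS mice. The groups overlapped over most of their range, with a log2 fold change of -0.13 (SE 0.37, 95% interval -0.94 to 0.68, adjusted P = 0.835).

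Ocln was 20.7, 12.2, 13.03, 17.8 and 15.8 FPKM in Control mice and 34.2, 37.8, 16.97, 12.8 and 33.8 FPKM in AOM/DSS mice. Mice 23, 30 and 52 of the AOM/DSS group were above all Control mice and mice 33 and 44 within their range. The log2 fold change of 0.64 (SE 0.29, adjusted P = 0.142) did not pass, but it did without AOM/DSS mouse 44, the lowest of its group, at 0.87 and an adjusted P of 0.0372. That was the only omission of 10 to pass, the log2 values running from 0.50 to 0.87 at adjusted P up to 0.269. The high values belonged to 1 transcript. Ocln-201, of 2839 bases and 9 exons at chr13:100497763-100552718, was 30.8 to 40.4 FPKM in 4 mice (AOM/DSS 23, 30 and 52, and PZH 46), and in the same 4 mice Ocln-205 was listed at 0. In the other 16 mice Ocln-201 was 0.253 to 4.77 FPKM, and Ocln-205, of 2443 bases at chr13:100498114-100552481, was 2.65 to 10.1 FPKM. The summed level was 33.8 to 41.2 FPKM in those 4 mice and 9.37 to 25.9 FPKM in the 16, so the 4 highest mice for Ocln as a gene were those 4.

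**Figure D5:**
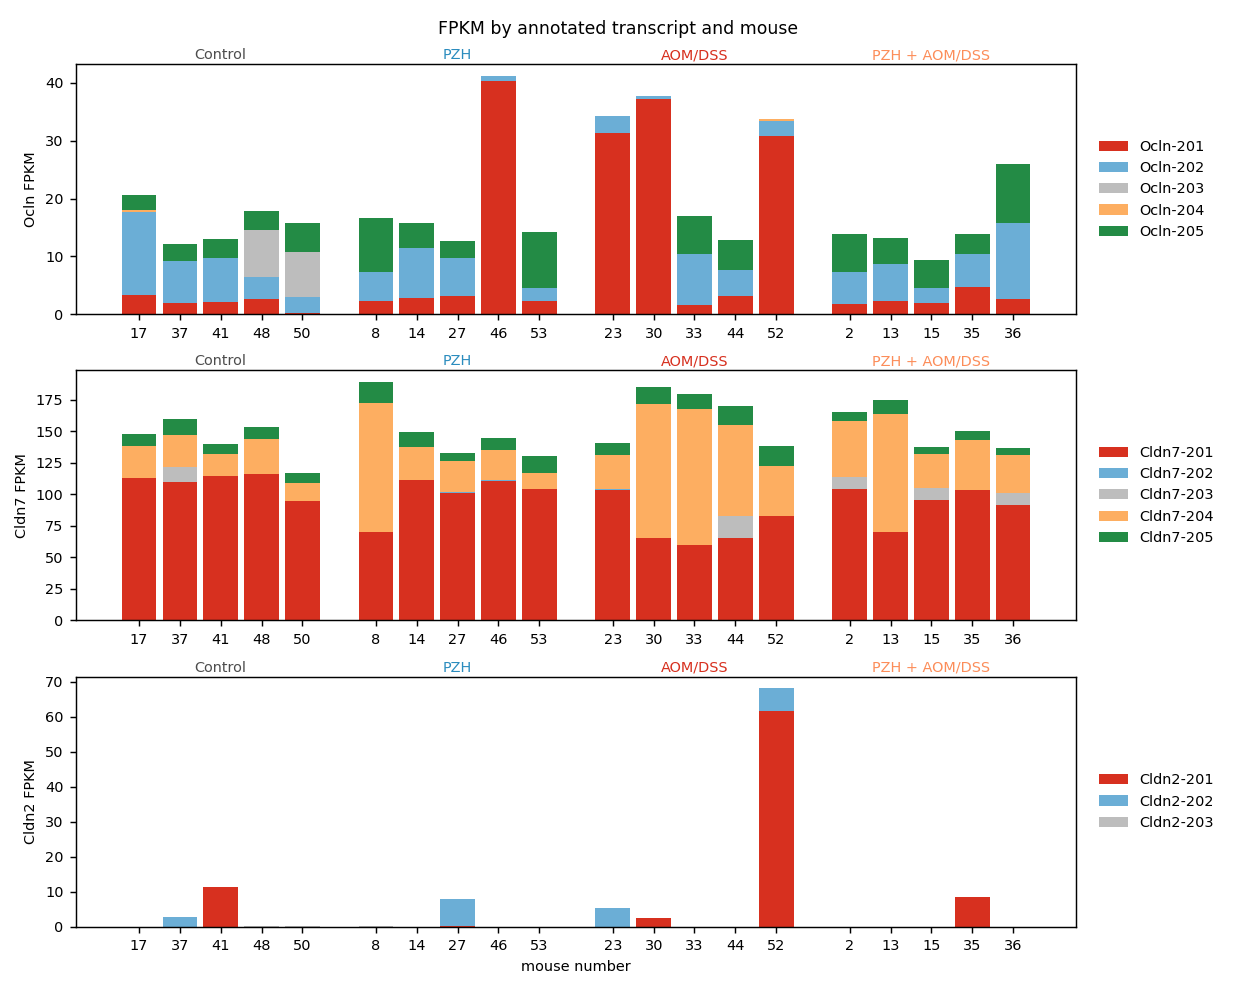
FPKM (linear axes) of each annotated transcript of Ocln, Cldn7 and Cldn2, stacked by mouse in the 4 groups. Ocln-201 makes up nearly all of Ocln in 4 mice at 30.8 to 40.4 FPKM, Cldn7-204 is 72.0 FPKM or more in 5 mice, and Cldn2 is 68.2 FPKM in AOM/DSS mouse 52.

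Tjp1, the scaffold under the strands, had 19.8, 15.5, 20.9, 19.5 and 16.5 FPKM in Control, and 16.9, 22.1, 20.6, 20.3 and 23.4 FPKM in AOM/DSS mice, with a log2 fold change of 0.16 (SE 0.12, 95% interval -0.10 to 0.42, adjusted P = 0.373). Over all 20 mice it lay between 13.5 and 23.4 FPKM, and 5 of the 6 comparisons gave log2 values between -0.14 and 0.10.

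PZH alone, compared with Control, asks what the formula changes in the uninjured colon. None of the 9 members tested was called by limma, beside 1 of 15506 genes (0.00645%). At an unadjusted P under 0.05, Cldn8 and Cldn23 were lower and no member was higher, beside 4.5% of all genes lower and 4.34% higher. Cldn8 had 58.8, 37, 91.8, 80.5 and 36.7 FPKM in PZH mice 8, 14, 27, 46 and 53, of which 2 lay within the Control range of 70.0 to 112.2 FPKM. Its log2 fold change was -0.61 (SE 0.26, adjusted P = 0.549). Cldn23 was 17.8 to 26.5 FPKM in PZH mice, with a log2 fold change of -0.38 (SE 0.15, adjusted P = 0.544). Cldn15 had 24.0, 60.4, 31.9, 61.5 and 66.0 FPKM in the PZH mice, and its log2 fold change was 0.83 (SE 0.40, 95% interval -0.047 to 1.72, adjusted P = 0.573). For Cldn3, Cldn7 and Tjp1 the 95% intervals lay within -0.37 and 0.32. The sum of smooth muscle genes was 1039 to 2412 FPKM in PZH mice, and that of surface colonocyte genes 3018 to 3745 FPKM, the first below the Control range in 4 of 5 mice and the second in all 5. Their part in the Cldn8 and Cldn23 values was not tested.

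The comparison of PZH + AOM/DSS with AOM/DSS mice asks what PZH changes in the model. Again none of the 9 members tested was called, beside 1 of 15888 genes (0.00629%). At an unadjusted P under 0.05, 2 members (Cldn4 and Ocln) were lower and 1 (Cldn15) was higher, beside 8.21% of all genes lower and 3.51% higher. Cldn4 had 21.2, 22.3, 57.0, 232.9 and 38.8 FPKM in PZH + AOM/DSS mice 2, 13, 15, 35 and 36. Of these, 4 lay below the whole AOM/DSS range of 100.6 to 245.1 FPKM and mouse 35 lay near its top. The log2 fold change was -1.80 (SE 0.58, 95% interval -3.08 to -0.53, adjusted P = 0.356). Without mouse 35 it was -2.37 with an adjusted P of 0.0076, and 808 genes in all were then called in place of 1. No other of the 10 omissions of 1 mouse gave a call of Cldn4, the log2 values reaching -1.52 and the adjusted P 0.611. In mouse 35 crypt base genes were also at AOM/DSS levels, with Lgr5, a stem cell receptor, at 21.6 FPKM, whereas its 4 group mates had 0.726 to 7.77 FPKM. Nothing in the labels sets mouse 35 apart.

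Cldn15 had 60.1, 34.4, 48.1, 21 and 43.3 FPKM in the PZH + AOM/DSS mice, of which 3 were above the AOM/DSS maximum of 36.6 FPKM. Its log2 fold change was 0.76 (SE 0.30, adjusted P = 0.383). Ocln had 13.9, 13.2, 9.37, 13.9 and 25.9 FPKM, with a log2 fold change of -0.75 (SE 0.33, adjusted P = 0.422), and no PZH + AOM/DSS mouse carried the high Ocln-201 transcript. Cldn8 stayed low at 25.1, 32.5, 17.5, 16.6 and 39.3 FPKM, with a log2 fold change against AOM/DSS of -0.35 (SE 0.35, 95% interval -1.13 to 0.42). The interval for Cldn3 was -0.29 to 0.29, for Cldn7 -0.35 to 0.18, for Cldn23 -0.46 to 0.34 and for Tjp1 -0.43 to 0.16. Surface colonocyte genes summed to 1089 to 3448 FPKM and crypt base genes to 51.4 to 198.9 FPKM in this group, the extremes of low surface and high crypt genes being those of mouse 35. In the other 4 mice the surface genes summed to 2233 to 3448 FPKM, above the AOM/DSS range of 946.8 to 1791 FPKM. Cldn8 and Cldn23 did not rise with them, at log2 fold changes of -0.35 and -0.058. Immune cell genes summed to 67.2 to 133.3 FPKM in 4 of these mice and to 324 FPKM in mouse 35, beside 180.6 to 557.5 FPKM in the AOM/DSS mice. The part of these lists was not tested.

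Against Control, PZH + AOM/DSS mice were lower in 2 of 9 members tested, Cldn8 and Cldn23, beside 0.871% of 15616 genes, and higher in none, beside 1.55%. Both genes had groups without overlap, beside 6.76% of all genes. Cldn8 was 16.6 to 39.3 FPKM against 70.0 to 112.2 FPKM, a mean ratio of 0.297, and its log2 fold change was -1.77 (SE 0.24, adjusted P = 0.0109). Cldn23 was 14.9 to 21.4 FPKM against 22.5 to 34.97 FPKM, with a log2 fold change of -0.67 (SE 0.15, adjusted P = 0.0498), and this call was lost without any of 9 of the 10 mice (all but Control mouse 37), with adjusted P up to 0.125. Without both Control mice that held squamous genes neither passed, at adjusted P of 0.0571 for Cldn8 and 0.144 for Cldn23. Cldn4 had a log2 fold change of 0.98 (SE 0.58, adjusted P = 0.36), and of 0.42 without mouse 35. The comparisons with Control and with AOM/DSS share mice, so their values are given side by side and not as separate evidence.

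Against PZH mice, PZH + AOM/DSS mice had no member called among the 9 tested, beside 1.74% of 15636 genes higher and 0.678% lower. At an unadjusted P under 0.05 Cldn4 was higher and Cldn3 and Cldn8 were lower, beside 13% and 7.89% of all genes. Cldn8 had a log2 fold change of -1.16 (SE 0.32, adjusted P = 0.0784), which passed at 0.0387 when all 20 mice shared the estimate of spread. Cldn4 had a value of 1.501 (SE 0.59, adjusted P = 0.183) and Cldn3 -0.32 (SE 0.13, adjusted P = 0.206). The interaction, which asks whether the model changes a gene differently with and without PZH, called no member in a limma model of all 20 mice, beside 2 of 16936 genes (0.0118%). No member had an unadjusted P under 0.05 there, beside 3.41% of all genes higher and 6.92% lower. Nearest to it were Ocln at -0.95 (SE 0.46, adjusted P = 0.492), Cldn4 at -1.28 (SE 0.71, adjusted P = 0.554) and Cldn1 at 0.63 (SE 0.35, adjusted P = 0.556).

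Other claudins were few in the colon. Of 16 listed, 14 were found and 4 passed the filter in AOM/DSS against Control, where 1 (Cldn6) was called higher and none lower, beside 16.4% and 7.23% of all genes tested, with a median log2 fold change of -0.18 beside 0.094 over all genes. Cldn6, a claudin of embryonic epithelia, was listed at 0 in 3 Control mice and at most at 0.0363 FPKM in the other 2. It was 0.579 to 2.06 FPKM in all 5 AOM/DSS mice (log2 fold change 1.14, SE 0.16, limma adjusted P = 6.38e-04). Cldn6 passed the filter only through those 5 AOM/DSS mice, so its test could only find it higher there. Its call, and the count that includes it, are therefore not read as a result. In PZH + AOM/DSS mice it was 0.546 FPKM in mouse 15, 1.33 FPKM in mouse 35 and listed at 0 in the other 3. Cldn18, a claudin of stomach and lung that fell below the filter, was listed at 0 in all Control and PZH mice, at 0.0988 to 0.807 FPKM in the AOM/DSS mice and at 0.146 and 0.213 FPKM in PZH + AOM/DSS mice 15 and 35. It is named after its values were seen. Cldn12, at 20.6 ± 3.53 FPKM in Control and 20.3 ± 2.24 FPKM in AOM/DSS mice, and Cldn5, the endothelial claudin, at 7.04 ± 2.11 and 5.28 ± 1.37 FPKM, were not called.

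Of 28 other tight junction genes 27 were tested in AOM/DSS against Control, and 5 were called higher and none lower, with a median log2 fold change of -0.012. That is a share near the 16.4% of all genes called higher in this comparison, and 7.23% were called lower. Amot, an angiomotin scaffold tied to the Hippo pathway, rose from 4.60 to 6.43 FPKM to 12.3 to 21.7 FPKM without overlap (log2 fold change 1.32, SE 0.15, adjusted P = 1.93e-04). Arhgef2, the RhoA exchange factor GEF-H1, rose by 0.89 (SE 0.13, adjusted P = 0.00112), also without overlap. Cxadr, the coxsackievirus and adenovirus receptor, rose by 0.48 (SE 0.15, adjusted P = 0.0370), and Lsr, the angulin of tricellular junctions, by 0.34 (SE 0.089, adjusted P = 0.0183). Both calls were lost under median-of-ratios scaling, at adjusted P of 0.121 and 0.0989, and with all 20 mice in 1 model, at 0.068 and 0.112. With the highest transcript of each gene alone, Cxadr, Lsr and Arhgef2 were not called, at adjusted P of 0.0584, 0.148 and 0.0763, whereas Amot kept its call under each of the 8 other settings. Cxadr lost its call without any of 7 mice (Control 17, 37 and 41, AOM/DSS 23, 30, 33 and 52), at adjusted P up to 0.0899, and Lsr without AOM/DSS mouse 52, at 0.0519.

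Partners of claudins were called in 3 of 7 tested, 2 higher and 1 lower, beside 16.4% and 7.23% of all genes. St14, the protease matriptase that cleaves EpCAM, was higher by 0.37 (SE 0.11, adjusted P = 0.0305), and Spint2, its inhibitor HAI-2, was lower by a log2 value of -0.33 (SE 0.094, adjusted P = 0.0291), at 635.7 to 754.7 FPKM against 788.3 to 911.3 FPKM. The St14 call was lost under median-of-ratios scaling, at an adjusted P of 0.136, and each of both calls without any of 6 mice, at adjusted P up to 0.0773 and 0.0741 (for St14 Control 37, 48 and 50 and AOM/DSS 30, 44 and 52, for Spint2 Control 41 and 48 and AOM/DSS 23, 33, 44 and 52). St14 also lost its call without Control mice 17 and 50 together, at 0.0762, and Spint2 with no filter, at 0.0684. Of 14 adherens junction and desmosome genes, 1 was called higher and none lower, again beside 16.4% and 7.23% of all genes. It was Dsc2, a desmosomal cadherin, at 0.69 (SE 0.15, adjusted P = 0.00738), a call lost with its highest transcript alone at 0.111, and the list's median was 0.208. Of 8 cytokines known to act on the barrier 2 passed the filter and both were called higher, beside the same 16.4%, Tnf at 1.91 (SE 0.26, adjusted P = 5.88e-04) and Il1b at 3.97 (SE 0.39, adjusted P = 6.6e-05). Il1b was also called in PZH + AOM/DSS mice, at 3.11 against PZH (adjusted P = 0.0156) and 2.81 against Control (adjusted P = 0.0280), the latter being lost without Control 17, 48 or 50 or PZH + AOM/DSS 15 or 35, at adjusted P up to 0.0743. The Il1b call against Control was also lost with no filter, at 0.0691, and without Control mice 17 and 50 together, at 0.135. No gene of these 5 lists was called where PZH was compared with Control or PZH + AOM/DSS with AOM/DSS.

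Likeness across mice was described by Pearson's r of log2(FPKM + 1) after subtracting each group's mean, over 20 mice and 16935 other genes, with no test, the points sharing libraries and tissue make-up. Cldn4 was nearest to Ascl4 (r = 0.897), Gsdma (0.895) and Ier3 (0.883). With PZH + AOM/DSS mouse 35 dropped from the correlation these values were 0.801, 0.800 and 0.803. The group means subtracted still included mouse 35, so these lower values are not free of it. Cldn1 was nearest to Gcnt1 (0.919), Scel (0.913), a sciellin gene of cornified epithelium, and Ceacam18 (0.907). Control mice 17 and 50, with squamous genes and 3.39 and 2.17 FPKM of Cldn1, stand far above their group mates. The r values of Cldn1 were not computed without them. Cldn15 was nearest to 5330417C22Rik (0.901), Dpep1 (0.898) and Hpd (0.891), and Cldn7 to H2-T23 (0.818), Psmb10 (0.790) and H2-Ab1 (0.772), genes of antigen presentation. For Cldn3 the nearest was Pink1 (0.849), for Tjp1 Gm45495 (0.843), for Cldn8 Trim46 (0.825), for Cldn23 Gm43962 (0.817), for Ocln Atxn3 (0.789) and for Cldn2 Rcbtb2 (0.759).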

How the data were processed

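Colon RNA from 20 mice was sequenced as 1 library per mouse. According to the study's methods, reads were checked with FastQC 0.11.5, filtered with NGSQC 2.3.3, aligned to mm10 with HISAT2 2.1.0 and assembled and quantified with StringTie 1.3.3b, and the authors deposited FPKM per transcript. The submitters' processing notes also name limma. The deposited FPKM values cover 118434 transcripts, of which 96032 were matched by Ensembl ID to GENCODE M21 (GRCm38) and summed to 32991 genes, with 150 Ensembl transcripts unmatched and 22252 assembled transcripts, holding 12.1 to 14.8% of FPKM, left out because they carry no gene name. Fragments given to those, or divided wrongly between overlapping transcripts, are therefore missing from gene sums. Depth was estimated from the commonest value of FPKM times length in genes with 1 transcript, although only 41.2 to 46.2% of low values lay within 0.03 of a whole step, so that no counts were recovered.

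Groups were taken from the labels. The extraction text in the labels names another tissue than the colon of the tissue label, and the epithelial markers were those of intestine. Each comparison used limma 3.58.1 in R 4.3.3 (empirical Bayes with a trend) on log2(FPKM + 1) for the 10 mice of the pair, on genes at 0.5 FPKM or more in at least 5 mice, with Benjamini-Hochberg adjustment over all genes tested and a threshold of 0.05, and the interaction used 20 mice. The labels do not give litters or cages, so P values measure the spread between these mice only. The model was tested on simulated data. The members and lists were chosen with earlier results of these data known. Named genes are all members, list genes called in AOM/DSS against Control (at most 6 rises and 6 falls, with Lsr and St14 added after their values were seen), list genes called elsewhere, the 4 most abundant genes of a marker list (Krt5, Vil1, Lgr5, Epcam, Cdx1, Phgr1, Cldn5, Cldn12, Cldn18, Dsc2 and Tnf were added after their values were seen), and the 3 genes most like each member. Alternatives were a pseudocount of 0.1, no filter, median-of-ratios scaling, the highest transcript of each gene, array weights, all 20 mice in 1 model and leaving out each mouse. Summing weighted by transcript length and leaving out Control mice 17 and 50 together were added after seeing the data. Motifs were chosen after the values were seen. Cldn16, Cldn25 and Prac1 had no match. Some list genes that enter these counts are not reported here.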

Additional observations from a re-analysis of the deposited data

Results flagged for a closer look

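In groups of 5, a mouse was set apart when its gap to the nearest other mouse, divided by the range of the group, exceeded Dixon's critical value of 0.71. Of 40 groups of values over the 10 members, 7 were flagged. Chance gives about 2 for normally distributed values, which raw FPKM need not be. Each flagged mouse was the highest of its group, so the number above 2 is not read as a result. Cldn4 at 232.9 FPKM in PZH + AOM/DSS mouse 35 stood apart from the next mouse at 57.0 FPKM, and the same mouse was highest in Cldn2 at 8.54 FPKM, the other 4 being listed at 0. Cldn2 was also far from its group at 11.4 FPKM in Control mouse 41, at 7.89 FPKM in PZH mouse 27 and at 68.2 FPKM in AOM/DSS mouse 52, so that 1 mouse of each group was set apart for this gene. Ocln stood apart at 41.2 FPKM in PZH mouse 46, the nearest being 16.7 FPKM, and at 25.9 FPKM in PZH + AOM/DSS mouse 36, the nearest being 13.9 FPKM. In PZH mouse 46 nearly all of Ocln was Ocln-201 at 40.4 FPKM, whereas mouse 36 had Ocln-202 at 13.1 FPKM and Ocln-205 at 10.1 FPKM. The cause of these single values was not tested.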

How the results depend on the processing

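In AOM/DSS against Control, where 4 members were called, Cldn4 and Cldn8 were called under every setting run. Cldn3 and Cldn23 were the other 2, and 2 members in all were called with no filter and without Control mice 17 and 50, and 2 to 3 without each mouse. The Cldn3 call was also lost with all 20 mice in 1 model and the Cldn23 call with the highest transcript alone. In PZH + AOM/DSS against Control, where 2 were called, 1 was called with a pseudocount of 0.1, with no filter, with the highest transcript alone and with length-weighted sums, 0 without Control mice 17 and 50, and 1 to 2 without each mouse. In PZH + AOM/DSS against AOM/DSS 0 to 1 were called without each mouse, the 1 being Cldn4 without mouse 35, and in PZH + AOM/DSS against PZH 1 (Cldn8) was called with all 20 mice in 1 model. PZH against Control and the interaction kept 0 calls under each setting and omission. With no filter more genes were adjusted for, and fewer mice were fitted when some were left out. The cause of these differences in calls was not tested. Of the single log2 values, 25 under other settings and 30 under omissions of 1 mouse changed sign, each of a member that was not called, and their cause was not tested. With the highest transcript alone the log2 values became Cldn7 -0.56 and Tjp1 -0.061 in AOM/DSS against Control, Cldn7 -0.15 in PZH against Control, Cldn7 0.31 in PZH + AOM/DSS against AOM/DSS, Cldn7 -0.094 and Tjp1 -0.059 in PZH + AOM/DSS against PZH, Cldn7 -0.25, Ocln 0.33 and Tjp1 -0.092 in PZH + AOM/DSS against Control, Cldn7 0.46 and Tjp1 0.002 in the interaction. Without Control mice 17 and 50 the log2 values became Cldn1 0.088 and Cldn7 -0.027 in PZH against Control, Cldn1 0.18 and Ocln 0.027 in PZH + AOM/DSS against Control, Cldn15 0.48 in the interaction. With median-of-ratios scaling the log2 values became Cldn3 0.031 in PZH + AOM/DSS against AOM/DSS, Cldn7 -0.024 in PZH + AOM/DSS against PZH, Tjp1 -0.053 in PZH + AOM/DSS against Control, Cldn3 0.003 in the interaction. With array weights the log2 values became Cldn3 0.033 in PZH + AOM/DSS against AOM/DSS, Tjp1 -0.051 in PZH + AOM/DSS against Control, Cldn15 0.11 in the interaction. With length-weighted sums the log2 values became Cldn7 0.007 in PZH + AOM/DSS against AOM/DSS, Cldn7 0.002 in the interaction. Leaving out each mouse in turn also turned signs. In AOM/DSS against Control Cldn15 ran from -0.35 to 0.086. In PZH against Control Cldn7 ran from -0.038 to 0.094, Ocln ran from -0.080 to 0.33 and Tjp1 ran from -0.13 to 0.016. In PZH + AOM/DSS against AOM/DSS Cldn3 ran from -0.066 to 0.11 and Cldn23 ran from -0.21 to 0.023. In PZH + AOM/DSS against PZH Cldn1 ran from -0.018 to 0.20, Cldn7 ran from -0.010 to 0.13 and Cldn15 ran from -0.43 to 0.010. In PZH + AOM/DSS against Control Ocln ran from -0.31 to 0.037 and Tjp1 ran from -0.046 to 0.11. In the interaction Cldn2 ran from -1.58 to 0.078, Cldn3 ran from -0.11 to 0.062, Cldn15 ran from -0.30 to 0.14 and Tjp1 ran from -0.15 to 0.024. Cldn7 with the highest transcript alone in AOM/DSS against Control was the only one of these to be called. No paired analysis was possible because the mouse numbers are not shared between groups. Depth limits Cldn1, at 18 to 180 estimated fragments per mouse, and the listed zeros limit Cldn2.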
